A study of Homo sapiens with 16 samples.

Results

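NF-kB is a family of transcription factors that act as dimers of the subunits encoded by NFKB1, NFKB2, RELA, RELB and REL. In resting cells the dimers are held back by inhibitors of the IkB family, here NFKBIA, NFKBIB and NFKBIE, and signalling through the IKK kinases removes these inhibitors. TNFAIP3 encodes A20, a ubiquitin-editing enzyme that shuts the signal off. NFKBIA and TNFAIP3 are textbook targets of NF-kB itself and so form negative feedback loops. These 9 genes were chosen by gene symbol among the 10304 transcripts listed in the count tables, and all 9 were found, each with 1 transcript.

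Transcription was measured by PRO-seq, a nuclear run-on assay that sequences the RNA held by engaged RNA polymerase, so that a value reports polymerase on a gene and not the amount of mRNA or protein. The cells were Kasumi-1, a cell line from acute myeloid leukaemia with the fusion gene RUNX1-RUNX1T1, in which SMARCA5 was tagged by FKBP12F36V. SMARCA5 is an ATPase of the ISWI nucleosome-remodelling family, and the compound dTAG-47 makes cells degrade a protein that carries this tag. Tagged cells were untreated (0 h, 5 libraries) or treated with 500 nM dTAG-47 for 2 h (3 libraries), 6 h (4 libraries) or 24 h (2 libraries), and all 14 libraries carry the tag. The 2 libraries of parental Kasumi-1 cells were not analysed here, the number of clones behind the tagged line is not given in the sources used here, and no label says whether libraries came from separate cultures, so the p-values measure the spread between these libraries.

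A code in the column names of the tables, called run here, splits the libraries in 3: run 1 holds 2 libraries at 0 h and 1 at 2 h, run 2 holds 2 at each of the 4 times, and run 3 holds 1 at 0 h and 2 at 6 h. The main fit therefore held a term for run and a change per time shared by all runs. The 24 h libraries all belong to run 2. Through the shared 2 h and 6 h changes, runs 1 and 3 also enter the 24 h values of this fit. These values can differ from the changes within run 2. Libraries held between 11182894 and 34209362 counts in gene bodies and between 1667950 and 7171601 near promoters. SMARCA5 transcription itself ran from 84.1 to 147 CPM (counts scaled to library size) and was not called changed at any time (adjusted p = 0.0779, 0.519 and 0.408 at 2, 6 and 24 h, edgeR); PRO-seq does not measure the loss of the protein. Markers were checked against the labelled line. KIT stood at 3799 CPM, RUNX1 at 3610 CPM and MPO at 980 CPM in the 0 h mean, 9 of 12 myeloid genes were listed, and 0 of 5 T cell and 0 of 5 B cell genes were. Of 5 erythroid genes 1 was listed (KLF1, 19.8 CPM), and of 5 fibroblast and epithelial genes 1 (EPCAM, 29.6 CPM, near the myeloid marker CD33 at 27.6). The listed myeloid genes CTSG (6.72 CPM), AZU1 (6.69) and CEBPA (5.44) stood below both KLF1 and EPCAM.

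Per kilobase of transcript span, the polymerase load at 0 h differed widely between the members. NFKBIE stood at 4.45 ± 0.601 CPM per kb (SD, n = 5), NFKBIA at 4.22 ± 0.929 and RELA at 3.80 ± 0.370, with overlapping ranges. Library by library, NFKBIE was above RELA in every 0 h library. NFKBIA was above both in run 1 (5.17 and 5.24 CPM per kb). In runs 2 and 3 NFKBIA was below NFKBIE (3.23 and 3.92 in run 2, 3.55 in run 3). NFKB2 followed at 2.08 ± 0.766 and REL at 1.76 ± 0.147, then NFKB1 at 1.19 ± 0.202 and NFKBIB at 0.921 ± 0.207. The range of NFKB2, 1.24 to 2.77, overlapped those of REL and NFKB1, and NFKB1 overlapped NFKBIB. The order differed by run: in run 1 NFKB2 read 1.26 and 1.24 CPM per kb, below REL (1.83 and 1.52) and NFKB1 (1.47 and 1.32), and in runs 2 and 3 it was above both. RELB at 0.530 ± 0.132 and TNFAIP3 at 0.428 ± 0.0564 CPM per kb, whose ranges overlapped, closed the order. The longest member, NFKB1, spans 116 kb (hg19 chr4:103422486-103538459, NM_003998) and the shortest, NFKBIA, 3.24 kb (chr14:35870716-35873960, NM_020529). TNFAIP3 lies at chr6:138188581-138204449 (NM_006290), NFKBIE at chr6:44225903-44233525 (NM_004556), RELA at chr11:65421067-65430443 (NM_021975), and NFKB2 at chr10:104154229-104162281 (NM_001077493). REL lies at chr2:61108752-61150178 (NM_002908), RELB at chr19:45504707-45541456 (NM_006509), and NFKBIB at chr19:39390340-39399534 (NM_001243116), where its first 162 bases overlap the listed SIRT2 transcript. RefSeq also places antisense or neighbouring transcripts across NFKB1 (NFKB1-AS1), RELA (RELA-DT) and TNFAIP3 (WAKMAR2); whether the counting used strand is not given in the sources used here, so reads of such pairs cannot be told apart.

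The promoters are shown because several members are known targets of the factor they encode or restrain. RefSeq windows (GRCh38.p14, 250 bases before to 50 after each start, read 5′ to 3′ on the gene's strand) matched 7 of the 9 members by symbol, in 12 windows, and they were not matched to the transcripts of the tables. Capitals mark matches to the kappa-B consensus on either strand. Positions count from the start site.
NFKB1, chr4:102501109-102501408, plus strand: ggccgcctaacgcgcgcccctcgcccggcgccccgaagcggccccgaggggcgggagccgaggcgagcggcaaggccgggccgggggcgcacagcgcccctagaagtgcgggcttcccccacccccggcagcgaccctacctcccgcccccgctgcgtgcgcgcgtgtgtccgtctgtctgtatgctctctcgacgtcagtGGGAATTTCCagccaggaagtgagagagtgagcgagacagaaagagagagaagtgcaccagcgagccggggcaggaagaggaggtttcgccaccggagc
NFKB2, chr10:102394328-102394627, plus strand: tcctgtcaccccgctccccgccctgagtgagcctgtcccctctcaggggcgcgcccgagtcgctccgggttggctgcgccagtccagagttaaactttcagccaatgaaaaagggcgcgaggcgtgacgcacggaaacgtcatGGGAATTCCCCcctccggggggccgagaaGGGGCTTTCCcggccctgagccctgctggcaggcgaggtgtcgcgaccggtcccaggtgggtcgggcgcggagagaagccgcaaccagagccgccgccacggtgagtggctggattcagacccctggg
NFKBIA, chr14:35404700-35404999, minus strand: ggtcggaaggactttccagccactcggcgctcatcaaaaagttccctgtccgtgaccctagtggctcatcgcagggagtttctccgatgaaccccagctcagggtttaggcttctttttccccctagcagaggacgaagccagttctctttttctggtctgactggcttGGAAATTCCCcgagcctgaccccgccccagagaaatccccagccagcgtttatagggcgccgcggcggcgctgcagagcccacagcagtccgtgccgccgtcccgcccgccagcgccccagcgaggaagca
TNFAIP3, chr6:137867009-137867308, plus strand: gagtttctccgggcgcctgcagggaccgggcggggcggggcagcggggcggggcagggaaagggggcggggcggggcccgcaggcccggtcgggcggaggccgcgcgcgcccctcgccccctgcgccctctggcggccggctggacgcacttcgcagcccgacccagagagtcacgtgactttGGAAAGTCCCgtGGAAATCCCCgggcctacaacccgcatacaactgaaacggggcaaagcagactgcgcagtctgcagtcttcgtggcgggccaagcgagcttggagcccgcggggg

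A kappa-B consensus match on either strand was present in 11.3% of all 35114 RefSeq windows of 300 bases. In NFKB1 the match stood at -49, in NFKBIA at -81, and in TNFAIP3 at -67 and -55. The NFKB2 window shown held overlapping matches at -107 and -106 and another at -78, and a further NFKB2 window held matches at -176 and -21. REL had overlapping matches at -47 and -46, and NFKBIB at -28 and -27 and another at 39 of 1 of its windows. Neither RELA window held a match, and nor did 1 further window each of NFKB1, NFKB2 and NFKBIB. NFKBIA also had TATAAA on the opposite strand at -33, a match present in 11.5% of all windows. A match describes the letters and is not evidence of binding. Genes with such matches went in different directions in the data that follow, NFKB1 down and NFKBIA up.

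In gene bodies, 4 of the 9 members passed the test at 2 h (edgeR quasi-likelihood test with a run term, Benjamini-Hochberg over all transcripts, adjusted p under 0.05), when 38.6% of all transcripts did. NFKB1 fell, and RELA, NFKBIB and NFKBIE rose. At 6 h 1 member passed, against 26.8% of all transcripts, and at 24 h 2 passed, against 19.8%. By direction, 19.7% of all transcripts rose and 18.9% fell at 2 h. The shares of members called at 2 and 24 h are near those of all transcripts. The median log2 fold change of the 9 was 0.08, 0.08 and 0.16 at the 3 times, and that of all transcripts 0.01 at each. Without the run term 2 members were called at 2 h (NFKB1 and NFKBIE), 3 at 6 h and 0 at 24 h, when 1365, 3010 and 1111 of the 10304 transcripts were. In run 2 fitted alone 6 were called at 24 h, with 4447 of all transcripts.

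**Figure D1:**
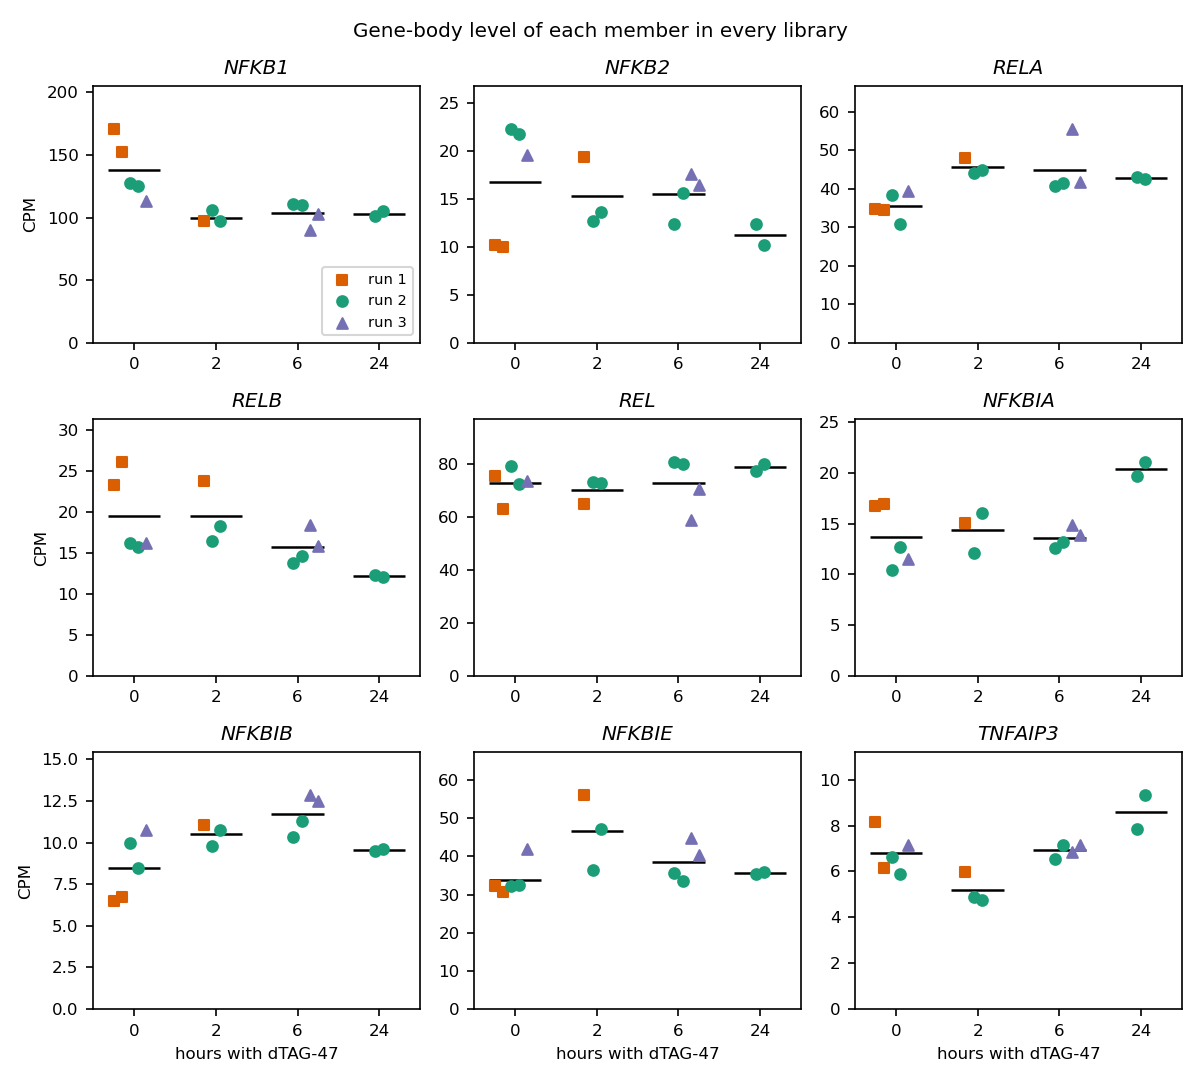
Gene-body level in CPM (y axis, from 0, a scale for each gene) of the 9 members at 0, 2, 6 and 24 h with dTAG-47 (x axis); each point is a library, its shape and colour give the run, and the line is the mean of a time. NFKB1 is highest at 0 h, NFKBIA is highest at 24 h, and NFKB2 at 0 h is about 10 CPM in run 1 and about 20 CPM in runs 2 and 3.

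NFKB1 encodes p105, the precursor of the p50 subunit, which also acts as an inhibitor. It was the one member called at all 3 times. At 0 h it stood at 171 and 153 CPM in run 1, 127 and 125 in run 2 and 113 in run 3. At 2 h the values were 97.0 in run 1 and 106 and 97.3 in run 2. Every 2 h library was below every 0 h library. At 6 h it stood at 110 and 110 CPM in run 2 and 90.0 and 103 in run 3, and at 24 h at 101 and 105. It fell by 0.48 ± 0.086 (SE) on the log2 scale at 2 h (adjusted p = 0.00124, edgeR), by 0.26 ± 0.0853 at 6 h (0.0363) and by 0.37 ± 0.105 at 24 h (0.0252). The 2 h call held in 14 of 14 fits that left out 1 library. The 6 h call held in 7 of 14, and the 24 h call was lost without either 24 h library (adjusted p = 0.173 and 0.109) and without the run term (0.066).

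The size of the NFKB1 fall at 2 h differed between runs. It was 0.74 ± 0.101 lower on the log2 scale in run 1 and 0.32 ± 0.0834 lower in run 2, and the interaction of run and time passed the test (difference -0.42, adjusted p = 0.0286, edgeR), as it did for 28.3% of all transcripts. The 0 h libraries of run 1 were the highest of all for NFKB1, and run 1 has 1 library at 2 h. The 6 h change was much the same size in run 2 (-0.20 ± 0.0835) and run 3 (-0.23 ± 0.0993), with a difference of -0.04 (adjusted p = 0.923), a test that 0.437% of all transcripts passed.

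RELA encodes p65, the subunit that carries the main activation domain. It stood at 34.8 and 34.5 CPM in run 1, 38.3 and 30.8 in run 2 and 39.5 in run 3 at 0 h, and at 48.0 in run 1 and 44.2 and 44.8 in run 2 at 2 h. The 2 h libraries were all above the 0 h libraries. RELA rose by 0.41 ± 0.0984 on the log2 scale at 2 h (adjusted p = 0.00629, edgeR), a call that was lost without the 2 h library of run 1 (0.0533). At 6 h it read 40.7 and 41.6 CPM in run 2 and 55.6 and 41.7 in run 3, and at 24 h 43.0 and 42.6. All of these also lay above every 0 h value, but the changes of 0.28 ± 0.101 and 0.33 ± 0.122 did not pass the test (adjusted p = 0.0532 and 0.0712). Within runs the change ranged from 0.24 in run 2 at 6 h to 0.47 in run 1 at 2 h, and the interaction tests did not pass (adjusted p = 0.708 at 2 h and 0.928 at 6 h).

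NFKB2, which encodes p100, the precursor of the p52 subunit of the non-canonical pathway, gave opposite changes in different runs. At 0 h it stood at 10.2 and 10.0 CPM in run 1, against 22.3 and 21.7 in run 2 and 19.5 in run 3. At 2 h it read 19.3 CPM in run 1 and 12.7 and 13.7 in run 2. Within run 1, where 53.6% of all transcripts were called, it rose by 0.94 ± 0.154 on the log2 scale (adjusted p = 0.000289, edgeR) and within run 2, where 19.5% were, it fell by 0.74 ± 0.141 (0.00351). The interaction was 1.68 ± 0.209 (adjusted p = 0.000319) and held in 13 of 13 fits that left out 1 library. The pooled 2 h value of 0.02 ± 0.244 (adjusted p = 0.956) describes neither run.

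Later times put NFKB2 lower in run 2. It fell by 0.65 ± 0.141 at 6 h in run 2 (12.3 and 15.6 CPM, adjusted p = 0.00579, edgeR) and by 0.97 ± 0.144 at 24 h (12.3 and 10.2 CPM, 0.000492), when 24.5% of all transcripts were called in run 2 at each of these times. In run 3 the 6 h libraries, at 17.6 and 16.4 CPM, were 0.20 ± 0.160 below the 0 h library (adjusted p = 0.419), when 14.5% of all transcripts were called. In the fit with a run term over all libraries, the 24 h change was -0.62 ± 0.312 (adjusted p = 0.176, edgeR). That fit shares the 2 h change between run 1 and run 2, where it had opposite signs, and only run 2 has 24 h libraries. With run 1 left out, NFKB2 had a 24 h change of -0.88 (adjusted p = 0.00166, edgeR). Its promoter-proximal counts, from 1 to 10 reads a library, were too low to test.

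**Figure D2:**
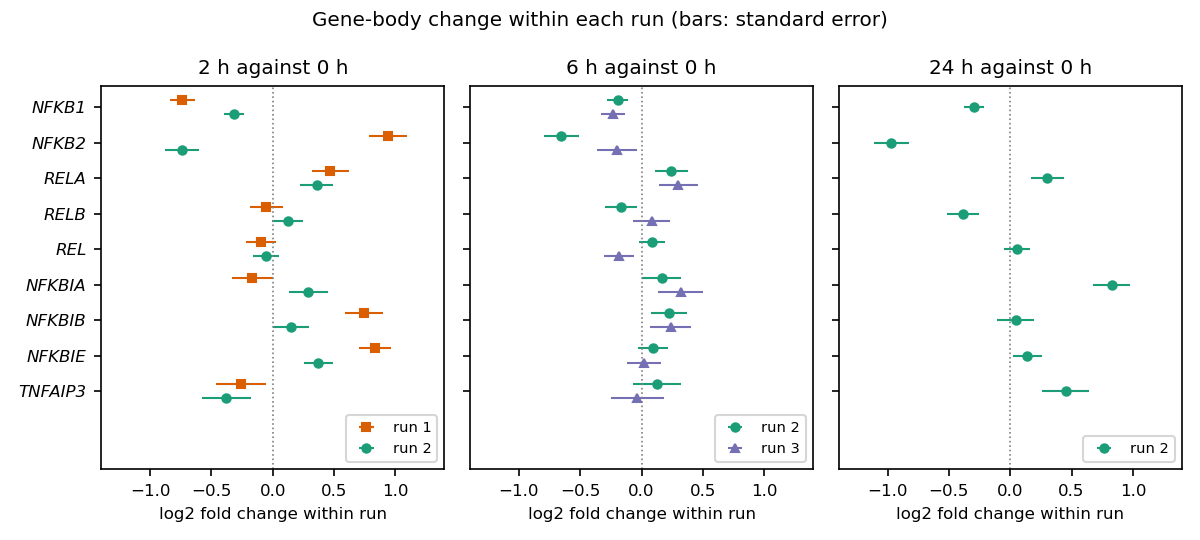
Gene-body log2 fold change against the 0 h libraries of the same run (x axis) for each member (y axis) at 2, 6 and 24 h; points are estimates, bars standard errors, and colours runs. NFKB2 at 2 h lies at 0.94 in run 1 and at -0.74 in run 2, while NFKB1 lies below 0 in every run and RELA above.

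RELB, the other non-canonical subunit, and REL, the subunit c-Rel of blood cells, were not called in gene bodies. RELB stood between 15.7 and 26.1 CPM at 0 h, with both run 1 libraries above the rest, and at 12.3 and 12.1 CPM at 24 h. The 24 h libraries of RELB were below all others, with a change of -0.38 ± 0.134 (adjusted p = 0.0636, edgeR). Estimated from the run 2 libraries, in the fit with a coefficient for each run and time, the 24 h change of -0.39 ± 0.132 did pass (adjusted p = 0.0488). REL ran from 59.1 to 80.9 CPM over all libraries, with changes of -0.10, -0.02 and 0.00 at the 3 times. The 95% interval of the REL change at 24 h was -0.23 to 0.23.

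NFKBIE, which encodes IkB-epsilon, had the largest rise of the 9 at 2 h. It stood at 32.2 and 30.6 CPM in run 1, 32.2 and 32.5 in run 2 and 42.0 in run 3 at 0 h. At 2 h it read 56.0 in run 1 and 36.4 and 47.2 in run 2. In runs 1 and 2 each 2 h library was above the 0 h libraries of its run. NFKBIE rose by 0.55 ± 0.108 on the log2 scale at 2 h (adjusted p = 0.00207, edgeR), and the call held in 14 of 14 fits that left out 1 library. It read 35.6 and 33.5 CPM in run 2 and 44.8 and 40.5 in run 3 at 6 h, and 35.3 and 36.0 at 24 h. Those later changes, 0.13 ± 0.110 and 0.21 ± 0.135, did not pass (adjusted p = 0.416 and 0.291). The drop from 2 h to 6 h, -0.42 ± 0.128, was not called either (adjusted p = 0.122), when 1.58% of all transcripts were. The nearest listed transcript, SLC35B2, lies 620 bases from NFKBIE.

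NFKBIB, which encodes IkB-beta, rose by 0.40 ± 0.131 at 2 h (adjusted p = 0.0274, edgeR), from 6.47 and 6.70 CPM in run 1, 9.96 and 8.47 in run 2 and 10.7 in run 3 at 0 h. The 2 h values were 11.03 CPM in run 1 and 9.80 and 10.8 in run 2, so that they overlapped the 0 h values of run 2. Most of the rise lay in run 1, at 0.74 ± 0.157 against 0.15 ± 0.147 in run 2, though the interaction did not pass (adjusted p = 0.0559). Without the 2 h library of run 1 the call was lost (adjusted p = 0.449), and without either 0 h library of run 1 as well (0.0593 and 0.0594). At 6 and 24 h the changes of 0.31 and 0.16 did not pass (adjusted p = 0.101 and 0.533).

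NFKBIA, which encodes IkB-alpha, the fast feedback inhibitor, passed the test at 24 h and not at 2 or 6 h. At 0 h it stood at 16.8 and 17.0 CPM in run 1, 10.5 and 12.7 in run 2 and 11.5 in run 3. The 2 h libraries read 15.04 CPM in run 1 and 12.1 and 16.01 in run 2, and the 6 h libraries 12.6 and 13.2 in run 2 and 14.9 and 13.9 in run 3. In run 3 both 6 h libraries were above the 0 h library, a change of 0.32 ± 0.181 (adjusted p = 0.251, edgeR). At 24 h it read 19.7 and 21.1 CPM, above every other library. The changes at 2 and 6 h were 0.12 ± 0.132 and 0.16 ± 0.136 (adjusted p = 0.484 and 0.41, edgeR). At 24 h NFKBIA rose by 0.76 ± 0.160 (adjusted p = 0.00562), a call lost without library B of the 24 h libraries (0.061) and without the run term (0.065). It was also higher at 24 h than at 2 h, by 0.64 ± 0.164 (adjusted p = 0.0449), when 4.08% of all transcripts were called in that contrast and 3.03% were higher; this call held in 4 of 14 fits that left out 1 library.

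TNFAIP3 was called between treated times. It stood at 8.14 and 6.14 CPM in run 1, 6.62 and 5.89 in run 2 and 7.16 in run 3 at 0 h. At 2 h it read 5.96 in run 1 and 4.90 and 4.76 in run 2, and at 24 h 7.85 and 9.32. In each run the 2 h libraries were below the 0 h libraries, and in run 2 the 24 h libraries were above them. Against 0 h, neither the 2 h change of -0.34 ± 0.140 nor the 24 h change of 0.45 ± 0.169 passed (adjusted p = 0.0658 and 0.0792, edgeR). From 2 h to 24 h TNFAIP3 rose by 0.79 ± 0.178 (adjusted p = 0.0256). That call held in 10 of 14 fits that left out 1 library, and was lost without either 24 h library (0.0797 and 0.294) or either 2 h library of run 2 (0.066 and 0.0939).

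**Figure D3:**
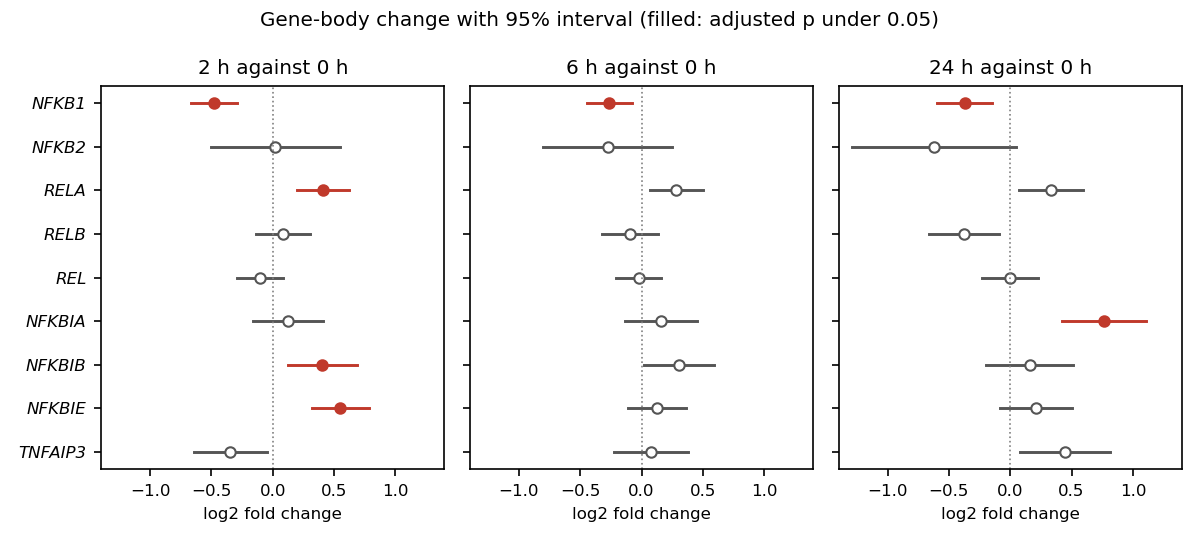
Gene-body log2 fold change (x axis) of each member (y axis) at 2, 6 and 24 h against 0 h, from the fit with a run term over 14 libraries; bars are 95% intervals and filled red points passed the test. NFKB1 lies below 0 at all 3 times, NFKBIE reaches 0.55 at 2 h, and NFKBIA reaches 0.76 at 24 h.

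Within run 2, the one run with all times, both treated libraries lay outside both 0 h libraries for 6 of 9 members at 2 h, 7 at 6 h and 7 at 24 h. The shares over all transcripts were 66.8%, 76.1% and 73.3%, close to the members' shares. The authors' deposited table called 4 members in gene bodies at 2 h, 2 at 6 h and 2 at 24 h, and 40%, 28.4% and 22.4% of all transcripts. In the authors' deposited table RELA at 6 h is called, with a log2 fold change of 0.28 and an adjusted p of 0.0444.

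Near promoters, where polymerase pauses before it enters the gene body, no member passed the test. Of the 9 members, 8 had enough reads to test. The count was 0 at 2 h, 6 h and 24 h (edgeR; 1, 0 and 0 at an unadjusted p under 0.05), when 4.61%, 2.24% and 1.41% of all transcripts passed, and the authors' deposited table also calls 0 at each time, with 0.757%, 0.903% and 0.376% of all transcripts. The promoter-proximal share of a member's reads separated the genes. Its median over 14 libraries was 28.4% for TNFAIP3 (23.8% to 47.5%), 28.4% for NFKBIA (15.1% to 44.6%) and 27.5% for NFKBIB (17.6% to 40.7%). It was between 6.17% and 7.30% for RELA, NFKBIE and REL, and 3.41% for RELB, 1.76% for NFKB1 and 1.64% for NFKB2. A share of this kind depends on the length of the gene as well as on pausing.

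TNFAIP3 was the member with an unadjusted p under 0.05 near its promoter. At 0 h its promoter-proximal level was 25.0 and 17.7 CPM in run 1, 19.9 and 20.4 in run 2 and 14.03 in run 3. At 2 h it read 11.1 in run 1 and 13.3 and 11.3 in run 2, below every 0 h library. The change was -0.72 ± 0.259 (adjusted p = 0.105, edgeR), and its 95% interval was -1.26 to -0.19. Without run 3 it passed (adjusted p = 0.0489). At 6 h TNFAIP3 stood between 14.4 and 22.1 CPM and at 24 h at 23.1 and 16.4, within the 0 h range. NFKBIA, whose gene body rose at 24 h, read 26.6 and 45.6 CPM near its promoter then, against 20.9 to 39.1 at 0 h, a change of 0.27 ± 0.323 (adjusted p = 0.755). REL read 63.1 and 46.6 CPM near its promoter at 6 h in run 3, above the 16.5 and 29.9 of run 2, and its 6 h change of 0.31 ± 0.250 did not pass (adjusted p = 0.585).

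**Figure D4:**
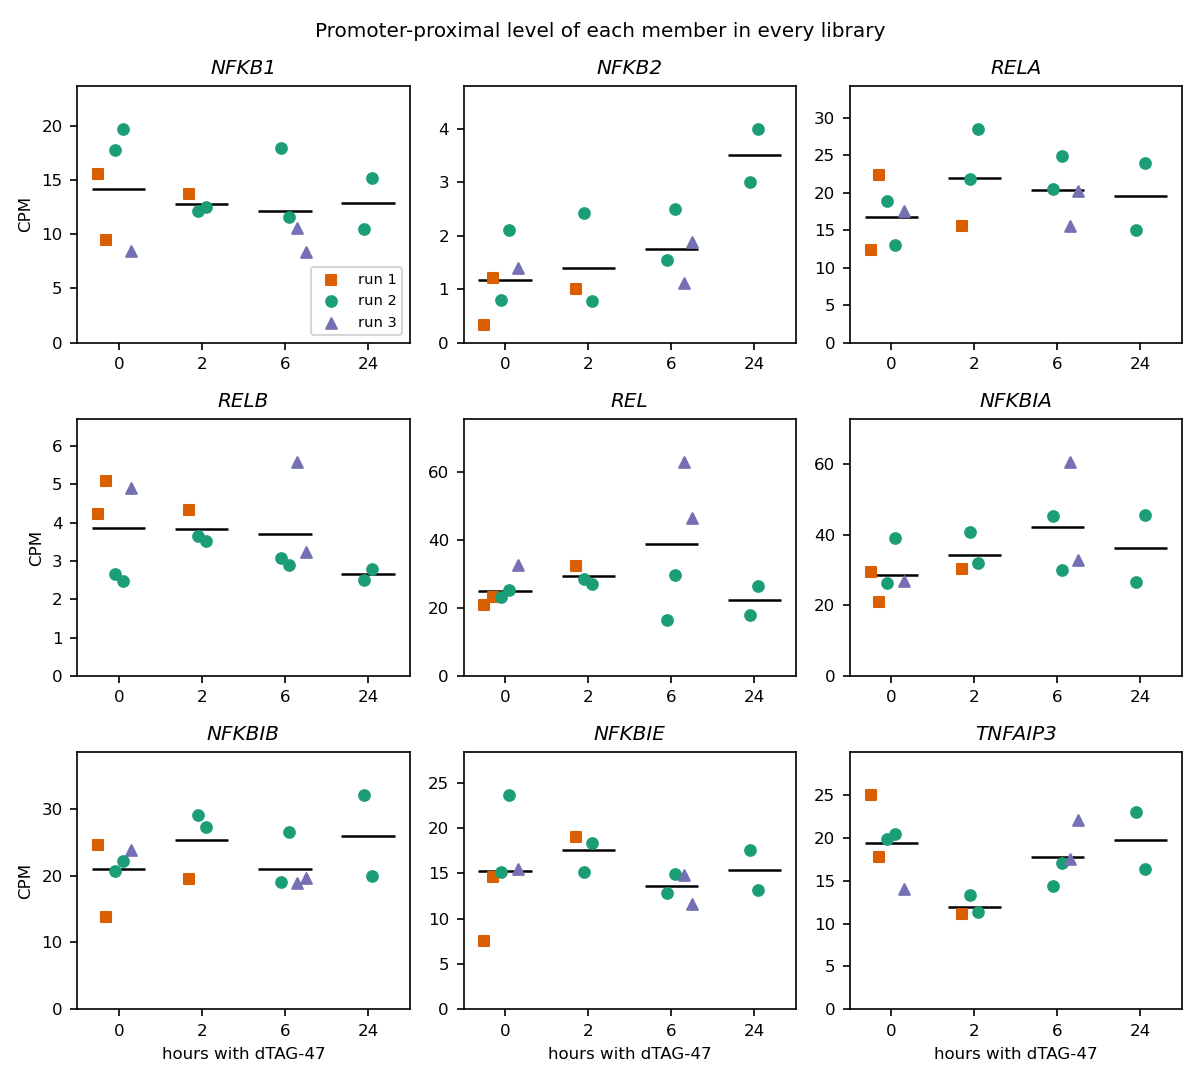
Promoter-proximal level in CPM (y axis, from 0, a scale for each gene) of the 9 members at 0, 2, 6 and 24 h with dTAG-47 (x axis); each point is a library, its shape and colour give the run, and the line is the mean of a time. The libraries of a time spread widely, and the 3 TNFAIP3 libraries at 2 h lie from 11.1 to 13.3 CPM, below the 5 at 0 h.

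The 2 regions of a gene were also set against each other in each library. For no member did the promoter-proximal change differ from the gene-body change (limma on the difference of log2 CPM, 0 of 8 at each time and 0 at an unadjusted p under 0.05), when 1.15%, 0.401% and 0.271% of all transcripts passed. The estimate for NFKBIA at 24 h was -0.55 with a 95% interval of -1.27 to 0.17. For NFKB1 at 2 h it was 0.24 (-0.33 to 0.81).

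Over the 14 libraries, log2 CPM centred within runs showed which members moved alike; these are descriptions over libraries that share treatment times. NFKBIB, NFKBIE and RELA went together (r = 0.801 for NFKBIB with NFKBIE, 0.762 for RELA with NFKBIB and 0.713 for RELA with NFKBIE). NFKB1 ran against them (-0.88 with NFKBIE, -0.851 with RELA and -0.85 with NFKBIB). RELB ran against TNFAIP3 (-0.848), and the textbook feedback pair NFKBIA and TNFAIP3 had r = 0.486.

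Among 9689 transcripts compared in the same way, those nearest to NFKB1 were LCORL (r = 0.989) and RYBP (0.988), and those nearest to RELA were NAT9 (0.939) and C20orf20 (0.936). PFKFB4 (0.93) and PPFIA1 (0.913) were nearest to NFKB2, SARS2 (0.917) and CARM1 (0.912) to RELB, and ZDHHC13 (0.882) and DNAJC13 (0.878) to REL. For the inhibitors they were DPEP2 (0.928) and GATS (0.915) for NFKBIA, TAOK2 (0.972) and UBE3B (0.964) for NFKBIB, and TMEM222 (0.958) and SURF2 (0.949) for NFKBIE. MAP3K1 (0.963) and B3GNT5 (0.94) were nearest to TNFAIP3. Without centring within runs, PPFIA1 and DNAJC13 were the only of these 18 to come among the nearest again.

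The kinases and adaptors of the pathways to NF-kB rose more often than they fell at 2 h. Of 27 tested, 10 rose and 1 fell in gene bodies (edgeR), against 19.7% and 18.9% of all transcripts, with a median change of 0.10. The 1 that fell was TRAF3 (-0.18 ± 0.0604, adjusted p = 0.0283), named here after its values were seen. MAP3K14, the kinase NIK that starts the non-canonical pathway, rose by 0.36 ± 0.061 at 2 h (adjusted p = 0.000975), 0.42 ± 0.062 at 6 h (0.000405) and 0.60 ± 0.0742 at 24 h (0.000198). TRADD, the adaptor of TNF receptor 1, rose by 0.69 ± 0.145 at 2 h (adjusted p = 0.00301) and 0.61 ± 0.150 at 6 h (0.00966). The 6 h call of TRADD was lost without run 3 (adjusted p = 0.0625, edgeR). It was also lost without library B of run 2 at 6 h (0.0524). IKBKE, an IKK-related kinase, rose by 0.41 and RBCK1, a part of the linear ubiquitin ligase, by 0.24 at 2 h (adjusted p = 0.0112 and 0.014). At 6 h 3 rose and 0 fell (13.5% and 13.4% of all transcripts), IRAK4 among them (0.24, adjusted p = 0.0164), and at 24 h 3 rose and 0 fell (10.8% and 9.08%), with IRAK1 at 0.38 (0.0422) and IKBKB, the IKK-beta kinase, at 0.20 (0.0483). The 2 h count differed between runs: within run 1 12 rose and 5 fell (53.6% of all transcripts called), within run 2 1 rose and 0 fell (19.5%), and without a run term 2 rose and 0 fell. The median change was 0.12 in run 1 and 0.11 in run 2. Without the 2 h library of run 1, IKBKE (0.19, adjusted p = 0.207), RBCK1 (0.0805) and TRADD (0.0613) lost the 2 h call, while MAP3K14 kept its calls at all 3 times under each of 25 alternatives. IRAK1 and IKBKB at 24 h lost theirs under many alternatives (adjusted p = 0.416 for IRAK1 without the run term and 0.283 for IKBKB without library A of the 24 h libraries), and IRAK4 at 6 h without run 3 (0.0673).

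In the fit with a run term, other inhibitors and regulators were called less often than all transcripts at 2 h, a difference that was not tested. Of 15 tested, 1 rose and 2 fell at 2 h, 2 rose and 1 fell at 6 h, and 1 rose and 1 fell at 24 h (edgeR), when 38.6%, 26.8% and 19.8% of all transcripts were called. The lower share was not seen within runs. At 2 h, 3 rose and 6 fell in run 1 (53.6% of all transcripts called), and 0 rose and 3 fell in run 2 (19.5%). IRAK3, an inhibitor of Toll-like receptor signalling, fell by 0.58 ± 0.065 at 2 h (adjusted p = 7.4e-05), by 0.39 at 6 h (0.000907) and by 0.32 at 24 h (0.0126). NFKBID, a nuclear member of the IkB family, rose by 0.29 at 2 h (adjusted p = 0.0243), 0.38 at 6 h (0.0104) and 0.79 ± 0.113 at 24 h (0.000576). PIAS1, a SUMO ligase, fell by 0.32 at 2 h (adjusted p = 0.00237), and CYLD, a deubiquitinase that restrains the pathway, rose by 0.32 at 6 h (0.0312). Without the run term NFKBID lost its calls at all 3 times (0.19, 0.09 and 0.35, adjusted p = 0.598, 0.772 and 0.427), as did PIAS1 at 2 h (0.0574), CYLD at 6 h (0.259) and IRAK3 at 24 h (0.181). NFKBID at 2 h also lost its call with the replicate block (0.073) and without the 2 h library of run 1 (0.104), and at 6 h without run 3 (0.0833). NFKBID at 24 h lost its call in 1 of 25 alternatives, and CYLD at 6 h was lost in 7 of 25. IRAK3 at 24 h also lost its call without library A or library B of the 24 h libraries, with changes of -0.32 and -0.33.

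Of 30 receptors and ligands, 8 were listed and tested, and in gene bodies 0 rose at 2, 6 or 24 h (edgeR), against 19.7%, 13.5% and 10.8% of all transcripts, while 2, 1 and 1 fell, against 18.9%, 13.4% and 9.08%. Near promoters 1 rose at 24 h and 1 fell at 2 h, when 1.41% and 4.61% of all transcripts were called in either direction. Within run 1, 2 rose and 2 fell in gene bodies at 2 h, when 53.6% of all transcripts were called. TNFSF13B, the cytokine BAFF, fell by 0.90 ± 0.164 at 2 h (adjusted p = 0.00138) and by 0.60 at 24 h (0.0474). TLR2, a receptor for bacterial lipoproteins, fell by 0.54 ± 0.127 at 2 h (adjusted p = 0.00558) and by 0.42 at 6 h (0.0258). TNF changed by 0.74 at 24 h without passing (adjusted p = 0.123). Without the 2 h library of run 1 TLR2 at 2 h was -0.28 and lost its call (adjusted p = 0.0709), and its 6 h call was lost without run 3 (0.0985) or either 6 h library of run 2 (0.0759 and 0.0953). TNFSF13B lost its 2 h call without the run term (0.125) and its 24 h call in 12 of 25 alternatives.

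In the fit with a run term, textbook targets of NF-kB rose and fell in shares near those of all transcripts at 2 and 6 h. Of 22 tested, 5 rose and 5 fell at 2 h, 4 rose and 4 fell at 6 h, and 5 rose and 1 fell at 24 h (edgeR); of all transcripts 19.7%, 13.5% and 10.8% rose and 18.9%, 13.4% and 9.08% fell. The list had medians of -0.08, -0.02 and 0.14. The shares differed within runs. At 2 h, 6 rose and 7 fell in run 1 (53.6% of all transcripts called), and 5 rose and 7 fell in run 2 (19.5%). At 6 h, 3 rose and 5 fell in run 2 (24.5%), and 2 rose and 2 fell in run 3 (14.5%). The larger share of targets called in run 2 at 2 h was not tested. CXCL2, a neutrophil chemokine, fell by 1.51 ± 0.225 at 2 h (adjusted p = 0.000414), by 1.10 at 6 h (0.00327) and by 1.13 at 24 h (0.0135). Its level was low, with a mean of 2.97 CPM at 0 h and 1.14 CPM at 2 h, so these changes rest on few reads. CFLAR, an inhibitor of caspase-8, fell by 0.48 ± 0.0502 at 2 h (adjusted p = 4.43e-05) and by 0.34 at 6 h (0.000428), and PLEK, a platelet and leukocyte kinase substrate, by 0.40 at 2 h (0.000151). PLAU, the urokinase protease, rose by 0.57 at 2 h (adjusted p = 0.000471), 0.49 at 6 h (0.00157) and 0.96 ± 0.106 at 24 h (9.29e-05). MAP3K8, a kinase held by p105, rose by 0.55 ± 0.0596 at 6 h (adjusted p = 4.46e-05) and 0.59 ± 0.0711 at 24 h (0.000171), and BCL2L1, which encodes the survival protein BCL-xL, by 0.46 at 24 h (0.00584). The values given for CFLAR, PLEK, PLAU and MAP3K8 passed under each of 25 alternatives. CXCL2 at 24 h lost its call without the run term (-0.75, adjusted p = 0.207) or without either 24 h library (0.091 and 0.108) and at 6 h without run 3 (0.0516), and BCL2L1 without library A of the 24 h libraries (0.0692).

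**Figure D5:**
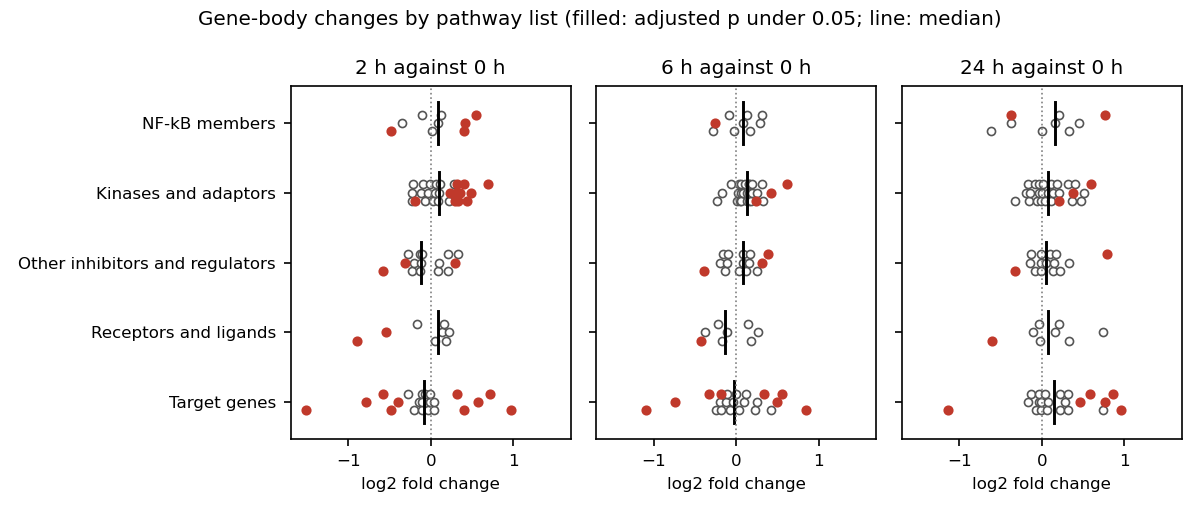
Gene-body log2 fold change (x axis) at 2, 6 and 24 h against 0 h for the 9 members and 4 lists of pathway genes (y axis); each point is a gene, filled red points passed the test, and the line is the median. Of the kinases and adaptors 10 of 27 rose at 2 h, while 5 target genes rose and 5 fell.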

How the data were processed

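PRO-seq reads were counted by the authors per transcript in gene bodies and near promoters, and the deposited tables hold these raw counts. Per the submitters' processing notes, the tools were Bowtie2 2.2.2, Trimmomatic 0.32, HOMER, SAMtools, DESeq2 and DESeq, on hg19. No counting tool, window or strand setting is given in the sources used here. The authors also deposited a log2 fold change, its standard error, a p-value and an adjusted p-value per transcript, quoted where named; 84 columns of their normalised values were not used.

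All 14 tagged libraries entered 1 edgeR 4.0.16 quasi-likelihood fit per region (R 4.3.3, TMM scaling, filterByExpr, terms for run and time), with Benjamini-Hochberg adjustment over 10304 transcripts in gene bodies or 9980 near promoters and a threshold of 0.05. A fit with 1 coefficient for each run and time gave changes within runs and their differences. Levels are CPM from TMM-scaled libraries, divided by the listed transcript span for levels per kb. The 2 regions were compared by limma 3.58.1 on log2 CPM (prior count 2) per library. Standard errors come from the estimate and its F statistic. The code was checked on simulated data.

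The 9 genes, the pathway lists and the tests were chosen with earlier results of these data known. The text names all 9, up to 4 genes a list by smallest adjusted p at each time, and the 2 transcripts most correlated with each member (mean count at least 100). NFKBIZ and TNIP1 stand in 2 lists. Samples were assigned from the column names, which carry time, library letter and run. Alternatives were no run term, DESeq2 1.42.0, its size factors, gene-body scaling near promoters, other filters, fewer libraries, a block for library letter, a threshold of 0.01 and a prior count of 0.5.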

Additional observations from a re-analysis of the deposited data

Results flagged for a closer look

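The 2 h change of NFKB2 in gene bodies differed between runs 1 and 2, by 1.68 on the log2 scale (adjusted p = 0.000319, edgeR interaction test), with opposite signs in the 2 runs. That of NFKB1 differed by -0.42 (adjusted p = 0.0286), with a fall in both runs.

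A single library stood apart from the others of its time in 4 of 36 groups of 4 or 5 libraries; chance gives about 1 in 20, and the groups mix runs. RELA read 55.6 CPM in gene bodies in library A of run 3 at 6 h, against 40.7 to 41.7 in the others. NFKBIE read 42.0 CPM in the 0 h library of run 3, against 30.6 to 32.5; at 6 h the run 3 libraries, at 44.8 and 40.5, were also above the 35.6 and 33.5 of run 2. Near promoters, RELB read 5.58 CPM in library A of run 3 at 6 h, against 2.91 to 3.23, and NFKBIB read 26.6 CPM in library B of run 2 at 6 h, against 19.0 to 19.7.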

How the results depend on the processing

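In gene bodies, 4 members were called at 2 h, 1 at 6 h, 2 at 24 h and 2 between 24 and 2 h. Of all 10304 transcripts 3979, 2762, 2045 and 420 were. Without the run term these counts were 2, 3, 0 and 0, and over all transcripts 1365, 3010, 1111 and 48. At 6 h they were 2 with DESeq2, with a minimum mean count of 100, with only the times compared, without run 1 and with the replicate block, 3 in run 2 alone, and 0 without run 3 or at adjusted p under 0.01. Over all transcripts the 6 h calls ranged from 1302 at the stricter threshold and 1470 without run 3 to 4383 in run 2 alone. At 24 h they were 6 in run 2 alone, with 4447 of all transcripts, and 1 at the stricter threshold, with 844. Between 24 and 2 h they were 1 without run 3, 0 with the replicate block and 0 at the stricter threshold, with 320, 247 and 135 of all transcripts. The differences between runs 1 and 2 at 2 h, 2 members, became 1 with only the times compared and 1 at the stricter threshold. Near promoters, 1 member (TNFAIP3) was called at 2 h without run 3. NFKB2 at 2 h turned to -0.74 in run 2 alone, -0.65 without run 1 and -0.65 without the 2 h library of run 1, since run 1 then gives no 2 h value; leaving out 1 library gave -0.65 to 0.24. Leaving out each library in turn gave 3 to 4 members at 2 h, 0 to 2 at 6 h, 0 to 3 at 24 h, 0 to 3 between 24 and 2 h, 0 to 1 between 6 and 2 h, and 1 to 3 for the run difference at 2 h; near promoters and between regions it gave 0. Counts over all transcripts are not given for these fits, nor for the run-difference and promoter-proximal alternatives above. These member counts therefore cannot be read as a result about the members. Of the members' values under all the alternatives, 2570 stayed on the same side of the threshold, 53 no longer passed and 34 passed in addition. A further 3 changed sign and passed in the main fit or the alternative. The 2570 include values that passed in neither fit and changed sign. NFKBIA in gene bodies at 2 h, for example, ran from -0.04 to 0.32 when 1 library was left out. Other causes were not tested.

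Library letters did not pair samples: deviations of same-lettered libraries in run 2 correlated between -0.068 and 0.129. With the replicate block of run and letter, NFKBIB at 2 h was lost (adjusted p = 0.109), RELA at 6 h passed (0.0296), and NFKBIA and TNFAIP3 between 24 and 2 h were lost (0.0795 and 0.074).

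Promoter-proximal counts ran from 1 to 226 a library for a member, which limits the calls there, and 24 h rests on 2 libraries.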

Other observations

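Some pathway genes rose between treated times. From 2 h to 24 h, 3 of 22 textbook targets rose in gene bodies and 0 fell (edgeR), against 3.03% of all transcripts that rose. CFLAR rose by 0.35 ± 0.0623 (adjusted p = 0.00698), PLEK by 0.33 ± 0.0638 (0.0108), and CD44, an adhesion receptor named here after its values were seen, by 0.90 ± 0.148 (0.00393). NFKBID also rose, by 0.50 ± 0.117 (adjusted p = 0.0329). From 2 h to 6 h, NKIRAS1, a small GTPase that binds the IkB proteins, named after its values were seen, rose by 0.47 ± 0.106 (adjusted p = 0.0438). These calls of list genes between treated times were not checked under the alternatives. Among the members, NFKBIA and TNFAIP3 lost their calls from 2 h to 24 h without the run term and with the replicate block.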
